A study of Drosophila sechellia with 6 samples.

Results

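The genes described here are the expressed protein-coding genes of *Drosophila sechellia* whose level was at least 2-fold higher on food with octanoic acid (OA) than on control food. Members were chosen from the authors' deposited table by 5 conditions: a gene symbol of GM and digits, a test status of OK, a control level of at least 5 FPKM, an OA level at least 2 times the control level, and a span under 30000 bases. FPKM counts sequenced fragments relative to the length of a transcript and to the mapped reads, and span is the end minus the start of the interval listed for a gene. The gene GM17654, which the study pairs with the *D. melanogaster* gene *CG1368*, was left out. These conditions gave 69 genes out of 17275 entries in the table.

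*D. sechellia* is a fruit fly of the Seychelles that feeds on the fruit of *Morinda citrifolia*. OA, a saturated fatty acid, is one of the acids that make this fruit poisonous to most other flies of the genus. Animals oxidise medium chain fatty acids in mitochondria for energy. Many members are short genes, and the short coding genes of flies include those of antimicrobial peptides, other small secreted peptides and ribosomal proteins. Whether any member belongs to these groups is not known here.

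Poly(A) RNA of whole adult females of strain 14021-0428.25 was sequenced in 6 libraries, 3 for control food and 3 for food holding 0.7% OA, with 10 flies in each library and an exposure of 24 hours. Both groups were reared at 20 degrees on cornmeal medium. The labels give the age as 1-4 days in the sample tags and 0 to 3 days at collection. The deposited table holds 1 FPKM value per gene and group, so no spread over the 3 libraries behind it is known here and no SD can be given. The number of reads behind a value is also unknown. Because the OA and control values themselves chose the members, every difference between the groups below is a description without a test. In RNA from whole flies, a change in the number of cells of a type and a change in RNA per cell cannot be told apart.

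The label of adult female was checked against yolk and eggshell genes, of which the table names 2 of 12. *Yp2*, a yolk protein gene, was at 11392 FPKM on control food and 15455 FPKM on OA food. The vitelline membrane gene *Vm32E* was at 984 FPKM on control food and 718 FPKM on OA food. The 142 rRNA and RF family entries took 9.14% of all FPKM in control and 0.947% in OA, and none of them was higher in OA. The summed FPKM of all coding genes was 1806211 in control and 1787962 in OA. Whether the rRNA and RF share has a part in the levels of single coding genes was not tested. Of 103 histone entries 34 were higher in OA, and their summed level was 3413 FPKM on control food and 2410 FPKM on OA food. For scale, 57.2% of the 9402 coding genes that met every condition but the fold were higher in OA. Of 10 embryonic patterning genes the table names 4, with 1 higher in OA. Among these, *Sry-alpha* fell from 21.6 FPKM on control food to 1.80 FPKM on OA food, a log2 ratio of -3.59. The gene *kni* fell from 5.45 to 3.29 FPKM, and *ftz*, whose test status was not OK, from 0.669 to 0 FPKM. The gene *hb* rose from 23.8 to 28.7 FPKM. A difference in egg or embryo content between the groups was not tested.

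Of 9402 expressed coding genes, which met every condition but the fold, 69 were at least doubled, or 0.734%. This is the background share itself, since the rule used this contrast. The median OA/control ratio over all expressed coding genes was 1.04, a log2 ratio of 0.05. No coding gene with another test status met the other conditions. None of the members was listed at 0 in either group.

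The members spanned a wide range of levels. Their control levels ran from 5.12 to 1197 FPKM with a median of 19.0 FPKM, and their OA levels from 11.04 to 3130 FPKM with a median of 54.1 FPKM. Over all expressed coding genes the medians were 33.99 FPKM on control food and 35.8 FPKM on OA food. In control 20 members were under 10 FPKM, 52 were under 50 FPKM and 15 were at 100 FPKM or more. In OA 22 members were at 100 FPKM or more. The share of expressed coding genes that were doubled was 1.88% at control levels from 5 to 10 FPKM, 0.840% from 10 to 20 FPKM, 0.557% from 20 to 50 FPKM, 0.129% from 50 to 100 FPKM, 0.949% from 100 to 500 FPKM and 0.209%, or 1 of 478 genes, from 500 FPKM upwards. The highest share was thus that of the lowest class, and the shares did not fall steadily with the level.

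**Figure D1:**
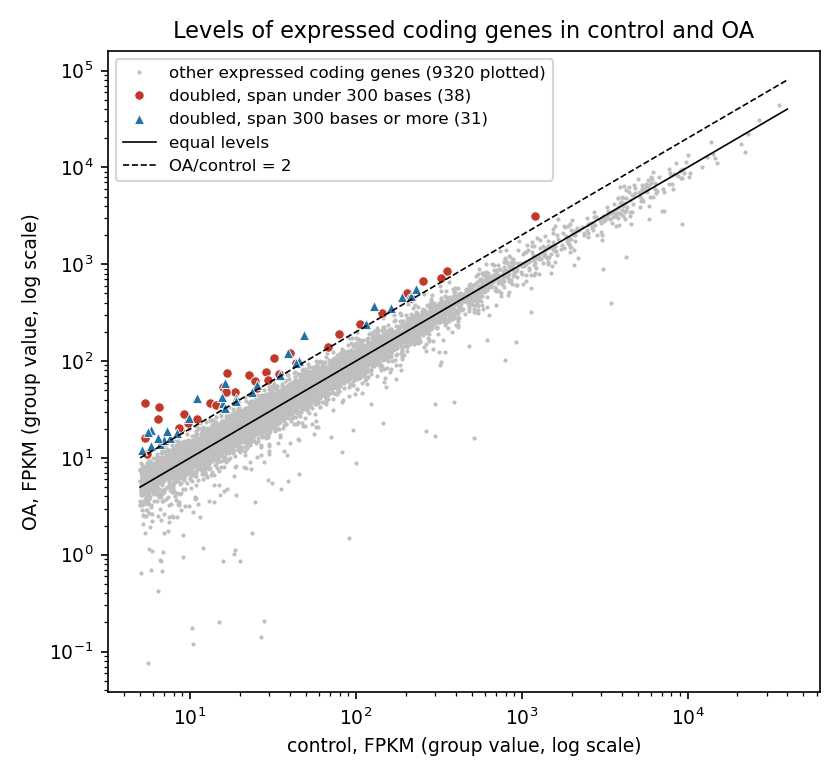
Control FPKM on the x axis and OA FPKM on the y axis, both on log scales, for the expressed coding genes, as the authors' group values. Red circles are the 38 doubled genes with a span under 300 bases and blue triangles the 31 with a longer span, grey points are the 9320 other genes above 0 in OA (13 listed at 0 in OA are not drawn), the solid line marks equal levels and the dashed line a ratio of 2. Doubled genes lie on or above the dashed line from 5.12 to 1197 FPKM in control.

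Most members lay close to the fold bound. The median OA/control ratio of the members was 2.40, a log2 ratio of 1.26, and the ratio was under 2.5 in 41 members, from 2.5 to 3 in 12 and at least 3 in 16. Genes at a ratio of at least 3 made up 0.17% of expressed coding genes. Only 3 members reached a ratio of 4.

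The values next to each bound of the rule were as follows. At the fold bound, the lowest member, on scaffold 2 from 7562156 to 7562706, was at 23.8 FPKM on control food and 47.6 FPKM on OA food, a ratio of 2.003. The nearest gene outside, on scaffold 12932 from 26 to 661, was at 11.5 FPKM on control food and 22.9 FPKM on OA food, a ratio of 1.994. The bound thus separates genes with almost the same ratio. At the bound on control level, the lowest member, on scaffold 32 from 172319 to 172825, was at 5.12 FPKM on control food and 11.9 FPKM on OA food. The nearest gene below this bound, on scaffold 390 from 13711 to 13896, was at 4.92 FPKM on control food and 13.8 FPKM on OA food. In all, 249 coding genes of the same status and span bound lay below the control bound and were at least doubled or listed at 0 in control. The longest member spanned 16805 bases, and the 3 doubled genes beyond the span bound spanned 32164, 40635 and 136945 bases, with ratios of 2.21, 2.26 and 2.17.

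Names of the members could not be given. The tables in the main text of the study pair 11 GM identifiers with *D. melanogaster* names, and 0 of the 69 members are among them. The study's supplementary tables were not used here. A RefSeq table of a later assembly of *D. sechellia* matched 0 identifiers of the file. Only the member with the highest OA level and the member with the largest ratio are therefore given by identifier, and the others by scaffold and position in the Ensembl assembly that the authors used. No functional group was assigned to any member.

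The 10 members with the highest OA level carried 65.7% of the summed control FPKM of the members and 65.2% of the summed OA FPKM. Summed over the 69 members, the level was 5146 FPKM on control food and 12685 FPKM on OA food, which is 0.287% and 0.716% of the sums over expressed coding genes. The most abundant member was GM25877, on scaffold 16 from 1297502 to 1297675, with a span of 174 bases. It was at 1197 FPKM on control food and 3130 FPKM on OA food, a ratio of 2.62. This gene alone made up 23.3% of the members' summed FPKM in control and 24.7% in OA, and without it the summed level was 3949 FPKM on control food and 9556 FPKM on OA food, a ratio of 2.42.

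Below GM25877, the next members formed a close series from 446 to 843 FPKM in OA. A gene of 93 bases on scaffold 23 from 338897 to 338989, the shortest member, was at 355 FPKM on control food and 843 FPKM on OA food. On scaffold 7 from 352520 to 352690, a gene of 171 bases was at 324 FPKM on control food and 719 FPKM on OA food. A gene of 102 bases on scaffold 0 from 16637843 to 16637944 was at 254 FPKM on control food and 679 FPKM on OA food. These 3 genes are all shorter than 200 bases, and their ratios lay between 2.22 and 2.67. On scaffold 1 from 12232694 to 12232846, a gene of 153 bases was at 203 FPKM on control food and 504 FPKM on OA food. On scaffold 0 from 9522365 to 9522529, a gene of 165 bases was at 200.1 FPKM on control food and 480.2 FPKM on OA food. On scaffold 41 from 91248 to 91403, a gene of 156 bases was at 215 FPKM on control food and 446 FPKM on OA food. These, too, were shorter than 200 bases. Among the 10 most abundant members in OA 7 spanned under 300 bases. The others were a gene of 513 bases on scaffold 18 from 824194 to 824706, at 215 FPKM on control food and 468 FPKM on OA food, and a pair on scaffold 53 that is described with the clusters.

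**Figure D2:**
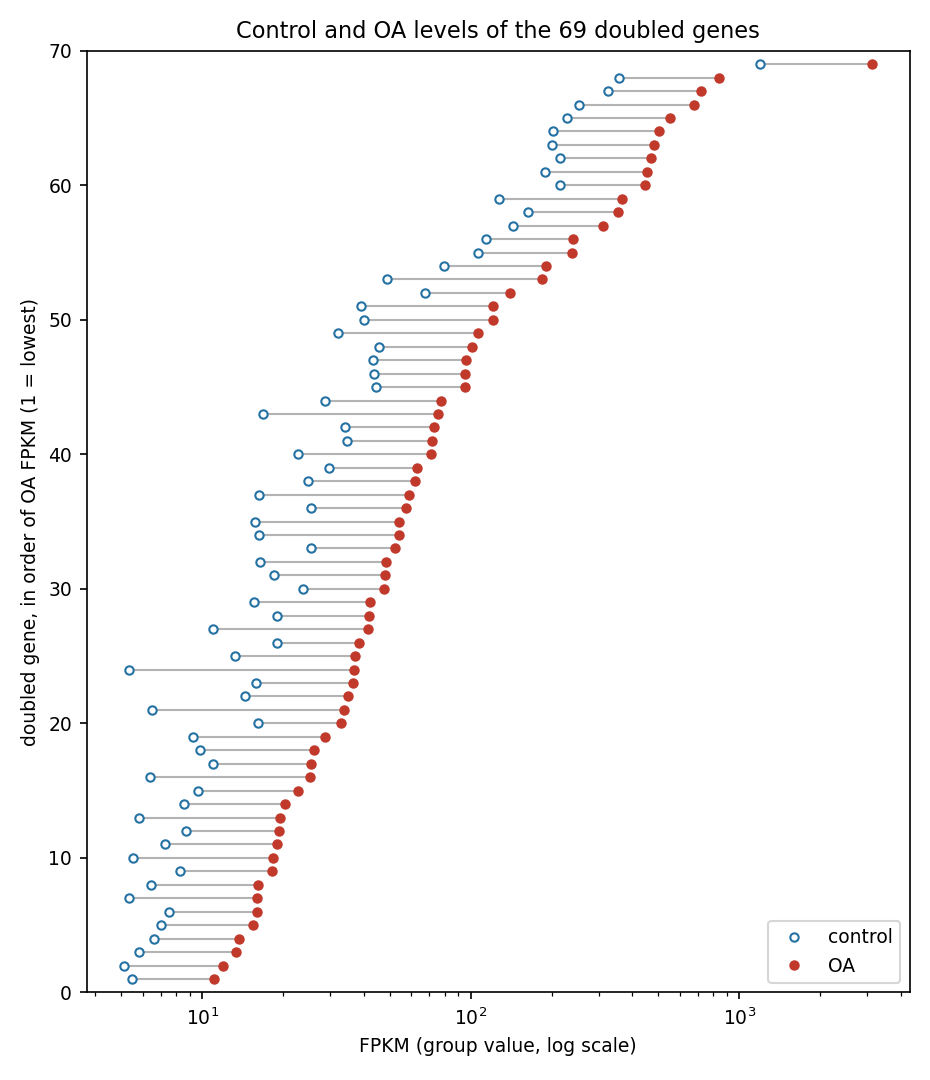
FPKM on a log x axis for each of the 69 doubled genes, ordered on the y axis by OA level, with an open blue circle for the authors' control value and a filled red circle for their OA value. Grey lines join the 2 values of a gene. The distance between the circles is shortest in the genes near a ratio of 2 and longest in GM14692, which went from 5.35 to 36.7 FPKM, and GM25877 stands apart at the top, at 1197 and 3130 FPKM.

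The largest ratio was that of GM14692, on scaffold 2 from 5076903 to 5077178, with a span of 276 bases. It was at 5.35 FPKM on control food and 36.7 FPKM on OA food, a ratio of 6.85. Its control level lay just above the bound of 5 FPKM. The second largest ratio, 5.21, belonged to a gene of 162 bases on scaffold 12074 from 999 to 1160, at 6.50 FPKM on control food and 33.9 FPKM on OA food. The next, with a ratio of 4.51, was a gene of 192 bases on scaffold 1112 from 811 to 1002, at 16.8 FPKM on control food and 75.8 FPKM on OA food. A gene of 174 bases on scaffold 13312 from 32 to 205 was at 6.38 FPKM on control food and 25.2 FPKM on OA food. The last 3 of these genes lie on scaffolds with at most 4 entries, unlike GM14692.

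The rest of the 10 largest ratios, from 3.33 to 3.79, included longer genes. On scaffold 3 from 988390 to 988694, a gene of 305 bases was at 10.98 FPKM on control food and 41.6 FPKM on OA food. On scaffold 1 from 1701976 to 1703165, a gene of 1190 bases was at 16.3 FPKM on control food and 59.0 FPKM on OA food. On scaffold 34 from 172112 to 172649, a gene of 538 bases was at 5.80 FPKM on control food and 19.6 FPKM on OA food. Each of these 3 was under 20 FPKM in control, as were 8 of the 10. A gene of 192 bases on scaffold 22 from 376082 to 376273 was higher, at 32.1 FPKM on control food and 107 FPKM on OA food. The remaining members of this group of 10 lie in the cluster on scaffold 16. None of the 10 members with the largest ratios was among the 10 with the highest OA level.

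The members were short. Their median span was 276 bases and ran from 93 to 16805 bases, against a median of 1610 bases over all expressed coding genes. Spans under 200 bases were found in 23 members, or 33.3%, against 1.31% of expressed coding genes, and spans under 300 bases in 38 members, or 55.1%, against 4.48%. The share under 300 bases depended on the bounds of the rule, and was 20.5% of the 351 genes at a fold bound of 1.5, 62.5% of the 16 genes at a fold bound of 3 and 38.2% of the 123 genes at a control minimum of 2 FPKM. The rule did not use span itself below its bound of 30000 bases. FPKM is scaled to length, however, so length entered the values that the rule used. Under 300 bases, 37 of the 38 members had spans of whole codons, as a coding sequence without intron or UTR would have, and so had 374 of the 421 expressed coding genes of that size.

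Seen from the side of span, the share of doubled genes was highest in the shortest class. Of 123 expressed coding genes under 200 bases 18.7% were doubled (Wilson 95% interval over genes 12.8% to 26.5%), and of 298 genes from 200 to 300 bases 5.03% (3.07% to 8.14%). These intervals cover counting error over genes only and treat the genes as independent. The share was 0.660% from 300 to 500 bases, 0.683% from 500 to 1000 bases and 0.0767% from 1000 to 2000 bases. It was 0.167% from 2000 to 5000 bases and 0.548% from 5000 to 30000 bases. The doubled genes of the shortest class had a median level of 34.2 FPKM on control food and 107 FPKM on OA food, with a median ratio of 2.70.

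Short genes were also frequent among the genes that were lower in OA. With the groups exchanged in the rule, 87 of 9483 genes with an OA level of 5 FPKM or more were at least 2-fold lower in OA, or 0.917%. Their median span was 467 bases, and 30 of them, or 34.5%, spanned under 300 bases. Under 200 bases 8.94% of genes were lower in this sense (Wilson 95% interval over genes 5.07% to 15.3%), and from 200 to 300 bases 6.35% (4.11% to 9.71%). From 300 to 500 bases the share was 2.53%, above the 0.660% that were doubled. Whether the doubled and the lower genes differ in span was not tested.

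The whole distribution of ratios was wider in short genes. Between the 10th and 90th percentile, the log2 OA/control of expressed coding genes under 200 bases covered 2.91, from -1.50 to 1.41, around a median of 0.03. From 200 to 300 bases it covered 1.70, from -1.03 to 0.67, and from 5000 to 30000 bases 0.62, from -0.17 to 0.45. The medians of the classes from 200 bases upwards ran from -0.14 to 0.19 in order of span. A log2 ratio of 1 thus lay between the 10th and 90th percentile only in the class under 200 bases. How much of this width lies between libraries of 1 group was not tested, because values per library were not used here.

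**Figure D3:**
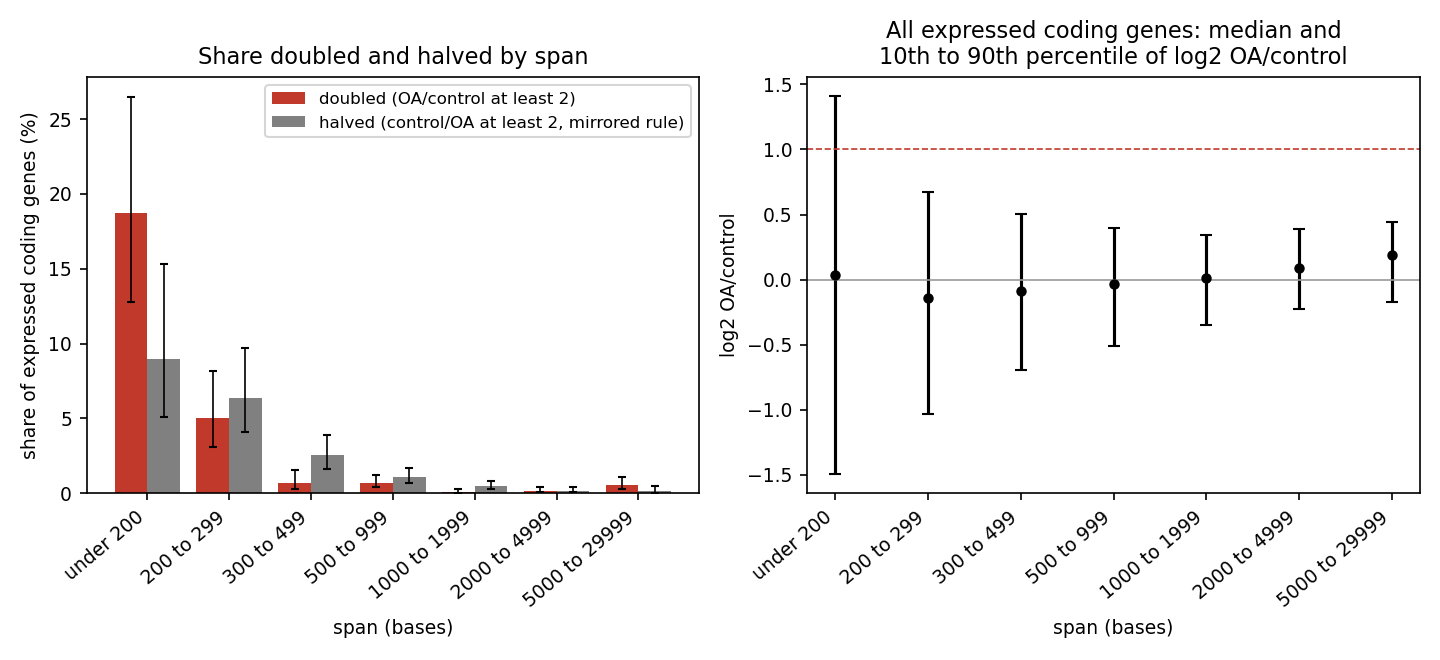
Left, the share of expressed coding genes (y axis, in percent) that were doubled (red) or at least 2-fold lower in OA under the mirrored rule (grey), by class of span in bases, with Wilson 95% intervals over genes. Right, the median log2 OA/control of all expressed coding genes of each class with bars from the 10th to the 90th percentile, where the dashed line marks the fold bound. The share doubled is 18.7% under 200 bases and under 1% in each class from 300 bases upwards, and the bars narrow from 2.91 to 0.62.

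A short gene also offers few positions to reads. With the single-end reads of 50 nt that were made, a read lying wholly within the gene can start at 44 positions in the shortest member and at 149 in the longest member under 200 bases, against 1560.5 at the median span of expressed coding genes. Span is not a transcript length, since it includes any introns of a gene. The product of FPKM and span in kilobases takes out the scaling to length only where span equals the length by which fragments were divided. The authors applied a length correction, so that length need not be the transcript length. Its value for short genes is not known here. Where span is longer than that length, the product is an upper guide to the relative number of fragments. It can overstate genes with introns and any short gene that was divided by less than its span. The product had a median of 11.1 in control and 23.8 in OA over the members, and of 66.6 and 68.4 over expressed coding genes. For the 38 members under 300 bases it was 5.37 in control and 13.4 in OA. For GM14692 the product was 1.48 in control, and for GM25877 it was 208. By this guide the most abundant member rests on far more fragments than the member with the largest ratio.

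Members of 300 bases or more numbered 31, or 0.345% of the 8981 expressed coding genes of that size, against 9.03% of those under 300 bases. Their median level was 16.3 FPKM on control food and 41.7 FPKM on OA food, and their median ratio was 2.30. Among them a gene of 2036 bases on scaffold 1194 from 3158 to 5193 was at 128 FPKM on control food and 366 FPKM on OA food. A gene of 2776 bases on scaffold 478 from 3559 to 6334 was at 163 FPKM on control food and 355 FPKM on OA food. Both combine length with a high level, and their products of FPKM and span in control were 261 and 452. The other members between 2000 and 5000 bases were at lower levels. A gene of 2736 bases on scaffold 1 from 3991258 to 3993993 was at 15.8 FPKM on control food and 36.6 FPKM on OA food. A gene of 2219 bases on scaffold 8 from 2305947 to 2308165 was at 7.29 FPKM on control food and 19.0 FPKM on OA food.

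The span of a gene that overlaps another entry is that of the interval they share, and 6 members are listed with an interval identical to that of another entry. Of the 8 members of 5000 bases or more 5 are of this kind. Reads could be divided between the genes of such an interval, so the value of any 1 of them is uncertain. On scaffold 1 from 4789115 to 4789906, the member was at 19.0 FPKM on control food and 38.5 FPKM on OA food, while the other entry of the interval was at 143 FPKM on control food and 88.6 FPKM on OA food. Together they were lower in OA, at a ratio of 0.784. On scaffold 6 from 229452 to 242652, the member was at 5.54 FPKM on control food and 18.4 FPKM on OA food, and the 3 entries of the interval together had a ratio of 1.26. On scaffold 0 from 12716762 to 12723486, the member was at 7.00 FPKM on control food and 15.4 FPKM on OA food, and both entries together had a ratio of 2.08. The doubling of these members is therefore a statement on 1 entry and not always on its interval. Each of the other 3 such members is part of the cluster on scaffold 53.

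The members lie on 37 scaffolds. The largest scaffolds held the most, with 11 members of 1756 expressed coding genes on scaffold 0 and 8 of 1309 on scaffold 1, or 0.626% and 0.611%. Scaffold 16 held 4 members of 126 expressed coding genes, or 3.17%, and scaffold 53 held 3 of 18. On 28 scaffolds there was a single member. Small scaffolds, with at most 5 entries, carried 12 members, or 17.4%, against 5.31% of expressed coding genes. The only entry of its scaffold was found in 6 members, or 8.70%, against 2.81%. Under 300 bases these shares were 23.7% and 10.5% of members, against 20.7% and 11.4% of expressed coding genes. From 300 bases upwards they were 9.68% and 6.45% of members, or 3 and 2 genes, against 4.59% and 2.41%. Both shares thus depend on span.

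Within 20000 bases of another member lay 10 members, or 14.5%, in 4 clusters. With only entries that overlap no other entry, 7 members were clustered. Under the mirrored rule 18 of the 87 lower genes, or 20.7%, were clustered in this sense, in 8 clusters. Over all expressed coding genes, a far denser set, the share was 93.9%, or 8829 of 9402. Clustering was thus seen in both directions and was not tested. The largest clusters held 3 members each, on scaffolds 16 and 53.

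The cluster on scaffold 16 runs from 656596 to 689446. Its first member spans 16805 bases from 656596 to 673400 and was at 48.9 FPKM on control food and 184 FPKM on OA food, a ratio of 3.77. The second, of 165 bases from 682472 to 682636, was at 15.8 FPKM on control food and 54.1 FPKM on OA food, a ratio of 3.43. The third, of 246 bases from 689201 to 689446, was at 5.49 FPKM on control food and 11.04 FPKM on OA food, a ratio of 2.01. The 3 members are thus of very different length and level, and the first 2 are among the 10 largest ratios. The only other entry between them was listed at 0 in both groups. The 4 neighbouring genes considered that were at 5 FPKM or more in control had ratios from 0.807 to 1.24. Below that level, a gene from 642408 to 643542 was at 0.384 FPKM on control food and 2.01 FPKM on OA food, a ratio of 5.23. Another, from 644490 to 645834, was at 2.30 FPKM on control food and 4.06 FPKM on OA food, a ratio of 1.76. GM25877 lies on the same scaffold, outside this cluster.

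In the cluster on scaffold 53 all 3 members share 1 interval of 12125 bases from 167702 to 179826, which holds 5 entries. The members were at 38.9, 229 and 189 FPKM in control and at 121, 551 and 455 FPKM in OA, with ratios of 3.12, 2.41 and 2.41. Of the other 2 entries, 1 was at 2.81 FPKM on control food and 1.95 FPKM on OA food and 1 was listed at 0 in both groups. Summed over the interval, the level was 460 FPKM on control food and 1129 FPKM on OA food, a ratio of 2.46. The 3 members, chosen for their ratios, carry 457 FPKM of this sum in control and 1127 FPKM in OA, so the ratio of the sum follows from the rule. The 4 neighbouring genes at 5 FPKM or more in control had ratios from 0.716 to 1.15.

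The other 2 clusters were pairs. On scaffold 23, the gene of 93 bases described above and a gene of 270 bases from 339119 to 339388 together lie in a stretch of 492 bases. The longer of them was at 14.4 FPKM on control food and 34.9 FPKM on OA food, and the ratios of the pair were close, 2.37 and 2.42, at levels that differ widely. The 6 neighbouring genes had ratios from 0.982 to 1.29. On scaffold 1, a gene of 258 bases from 13082987 to 13083244 was at 25.5 FPKM on control food and 52.3 FPKM on OA food, and a gene of 174 bases from 13092830 to 13093003 was at 16.3 FPKM on control food and 53.9 FPKM on OA food. A further member on this scaffold, of 153 bases from 13039886 to 13040038, was at 5.35 FPKM on control food and 16.0 FPKM on OA food and joined the pair only when gaps of up to 50000 bases were allowed.

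**Figure D4:**
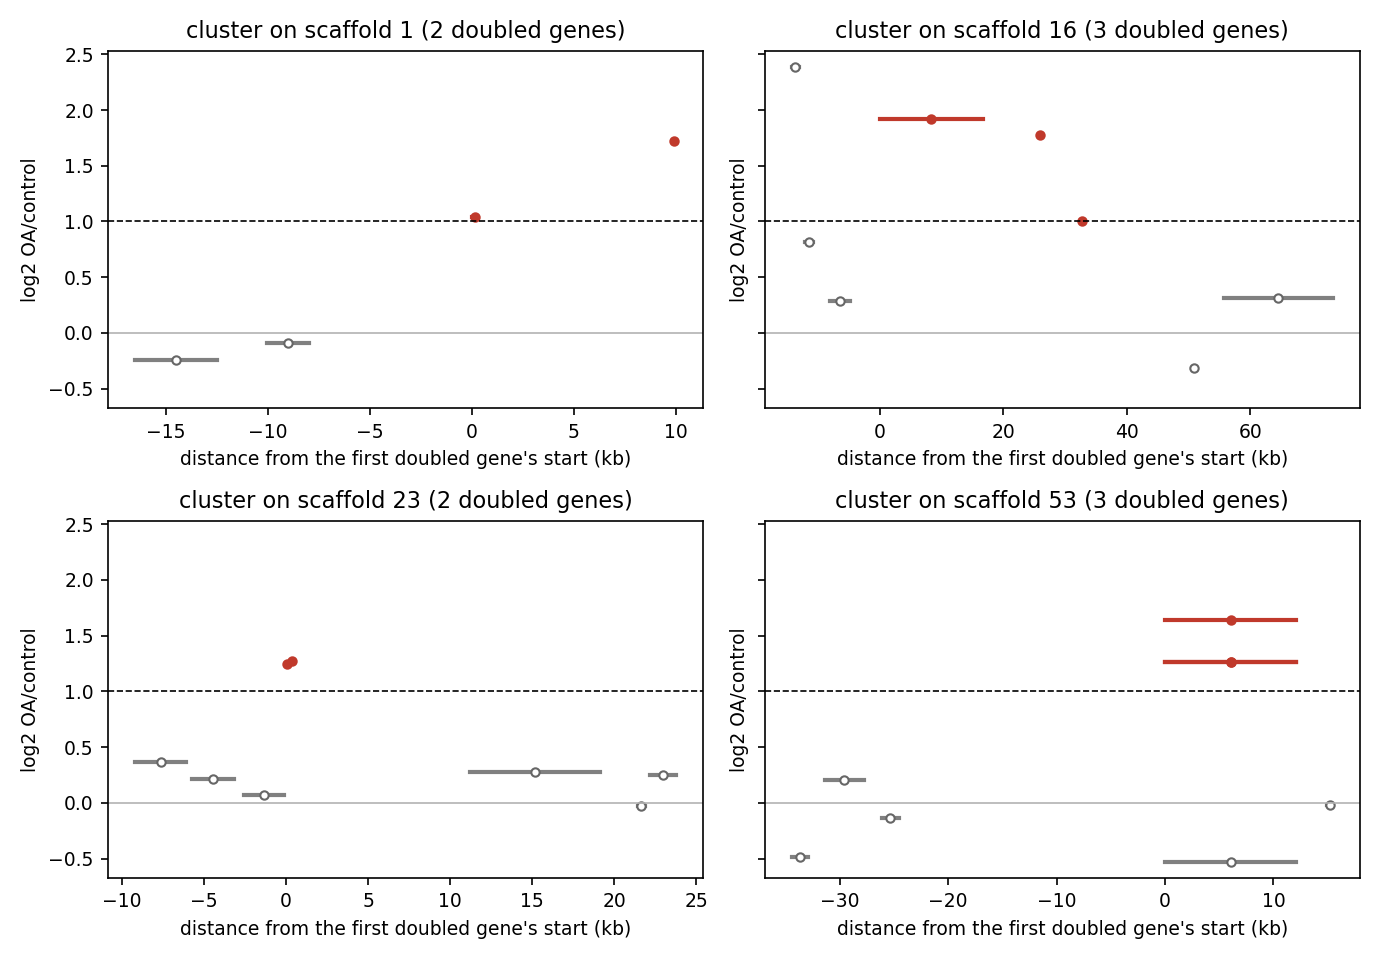
Log2 OA/control (y axis) against the distance in kb from the start of the first doubled gene (x axis) in the 4 clusters, with doubled genes in red and the other genes of status OK within 40 kb (up to 3 on each side) in grey, bars for the listed span and the dashed line at the fold bound. Genes at 0 in either group are not drawn, and on scaffold 53 the doubled genes with ratios of 2.406 and 2.407 lie on top of each other. On scaffold 16, a grey gene above the dashed line was at 0.384 FPKM on control food and 2.01 FPKM on OA food, below the bound on control level.

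The nearest coding genes of status OK before and after each member by start position, members themselves excepted, numbered 107. No bound on distance was set, and an entry that shares a member's interval could count as its neighbour. Over these neighbours the median log2 OA/control was 0.11, against 0.05 over expressed coding genes, and 63.6% were higher in OA, against 57.2%. A ratio of 1.5 was reached by 13 of the 107, or 12.1%, and the 90th percentile of log2 OA/control over all 107 was 0.68, against 0.41. Among the 85 neighbours at 5 FPKM or more in control the median was 0.09, and 4 of them, or 4.71%, reached this ratio, against 3.73% of expressed coding genes, members included, so 9 of the 13 were below 5 FPKM in control. The neighbours were not used by the rule, but are not independent of the members where they overlap them or share reads with them. Their median lay within 0.1 of that of all expressed coding genes on the log2 scale.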

How the data were processed

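RNA-seq of poly(A) RNA was done in 6 libraries, grouped by their titles into 3 control and 3 OA libraries. Single-end reads of 50 nt were mapped by the authors with Bowtie2 against the *D. sechellia* assembly of Ensembl. Levels came from Cuffdiff, corrected for length and sequence bias and normalized geometrically; tool versions are not given in the sources used here. The FPKM values the authors deposited are 1 per gene and group, pooled over libraries, so no SD, paired fit or fit without a library was possible, and depth per gene is unknown. The table's own fold changes, test statistics, p-values and q-values were not used.

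Ratios were computed from FPKM without a pseudocount. Clusters are members with gaps of at most 20000 bases, and intervals of shares are Wilson 95% intervals. Start positions are counted from 1. The members, lists and bounds were chosen with earlier results of these data known. Named members are the 10 highest in OA, the 10 largest ratios, members of clusters of 3 and genes next to the bounds, and the other members given were chosen after their values were seen. The selection and clustering steps were tested on simulated data. The software was Matplotlib 3.10.9, SciPy 1.17.1, pandas 2.3.3 and NumPy 2.4.6 under Python 3.11.15.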

Additional observations from a re-analysis of the deposited data

How the results depend on the processing

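No paired analysis was possible because each gene has a single value for each group. Fits without each replicate were not run for that reason. Without values per library, differences near the fold bound and in short genes cannot be set against replicate error.

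The 69 doubled genes (0.734%) became 123 (1.18%) with a control minimum of 2 FPKM, 351 (3.73%) at a fold bound of 1.5 and 16 (0.170%) at a fold bound of 3. Their median levels of 19.0 FPKM on control food and 54.1 FPKM on OA food became 6.38 and 19.3 FPKM with a minimum of 2 FPKM and 34.7 and 95.4 FPKM with a minimum of 10 FPKM. The lower genes of the mirrored rule became 132 with a minimum of 2 FPKM. Clustered members numbered 79 at a fold bound of 1.5 and 2 at a fold bound of 3. These settings move the bounds that define the members. With only spans of 300 bases or more, a setting added after seeing the data, there were 31 members (0.345%) with a median span of 828 bases and 3 in clusters. The other 55 planned values, among them those for rescaling, centring, a pseudocount of 1, no span bound, entries without overlap and the other cluster definitions, moved by less than 1.5 times for counts or stayed within the 95% interval over genes of the reported value. Among these 55, the median span of 276 bases became 453 bases with a control minimum of 2 FPKM, inside its interval of 231 to 502 bases. Such intervals treat the members as a sample of genes, though the rule chose them, and hold no error between libraries. Centring on the median kept 62 of the 69 members, and rescaling to the same coding total kept all 69 and gave 75.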
